A study of Mus musculus with 2 samples.

Results

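Melanocyte lineage cells were examined as 50 single cells, 22 from control and 28 from miR-205 inducible mouse back skin, out of 7564 kept cells. A kept cell showed over 200 but under 5000 genes and under 10% mitochondrial unique molecular identifiers (UMIs, which count captured RNA molecules). A cell was taken as melanocyte lineage if its raw UMIs of Dct, Pmel and Mlana summed to at least 3 and those of Krt5 and Krt14, the keratins of basal keratinocytes, stayed below 30. Because these 5 genes chose the cells, their levels against other cells are a description. The genes given to mark the lineage were Dct (ENSMUSG00000022129, chr14:118012790-118052246), Pmel (ENSMUSG00000025359, chr10:128695888-128720238), Mlana (ENSMUSG00000024806, chr19:29697541-29708447), Kit (ENSMUSG00000005672, chr5:75574987-75656722) and Mitf (ENSMUSG00000035158, chr6:97807002-98021360), with coordinates from RefSeq on GRCm38.p6.

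The back skin came from 1 control and 1 miR-205 inducible mouse at postnatal day 53, described as C57BL/6, and each mouse gave 1 library on the 10x Genomics platform. Both mice carried a K14-H2BGFP allele, a nuclear green reporter under the keratin 14 promoter. In the inducible line, made by injecting a pTRE2-miR-205 transgene into FVB mice, the Krt14-rtTA allele turns on miR-205 under doxycycline in keratin 14-expressing cells, so that melanocytes are not the cells the promoter is built to reach. Feeding with doxycycline chow began at postnatal day 49 and lasted 4 days. The extraction protocol has both mice fed, whereas the control is labelled untreated. Sorting on surface proteins and green fluorescence set epidermal, hair follicle and dermal cells to a 3:5:2 mix. The sources used here do not name the gate that melanocytes passed. The study asked how miR-205, a microRNA of skin epithelium, alters skin cells around the start of hair growth.

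Melanocytes are neural crest derivatives that build melanin inside melanosomes, lysosome-related organelles. In mouse back skin nearly all of them belong to the hair follicle, where melanocyte stem cells rest in the bulge and hair germ during telogen and give rise to pigment-producing progeny at the hair bulb when a new hair grows. The transcription factor MITF, working with SOX10 and PAX3, turns on the pigment genes, and the receptor KIT and its ligand from the follicle support migration and survival. Tyrosinase (Tyr) starts melanin synthesis, Dct and Tyrp1 are related enzymes acting later, Pmel forms the fibrils on which pigment is laid down, and Mlana is a small melanosome protein. Dct is also a familiar marker of the unpigmented stem cells.

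Promoters of some pigment genes held the letters bound by MITF and related basic helix-loop-helix proteins. Examples are shown because the cells were chosen by, and are best known for, this gene program. The 250 bases before each start in the RefSeq promoter table (build GRCm38.p6) were searched on both strands for CATGTG and CACGTG, 2 motifs that do not overlap each other. Of 27025 genes with a promoter in the table, 5338 (19.8%) held either motif. Among the 3 pigment lists (melanin enzymes, melanosome matrix and transport, melanosome biogenesis and movement), 28 of 34 genes matched a promoter and 16 of these (57.1%) held a motif, including 3 of 3 melanin enzymes. The windows below read 5′ to 3′ on the strand of the gene, with the motif or its reverse complement in capitals. The Tyr window lies at chr7:87493513-87493542 (minus strand), Tyrp1 at chr4:80834155-80834184 (plus), Dct at chr14:118052379-118052408 and chr14:118052461-118052490 (minus), and Slc24a5 at chr2:125068097-125068126 (plus). The other windows lie at chr1:90915040-90915069 for Mlph, chr11:120442601-120442630 for Tspan10 and chr7:64153682-64153711 for Trpm1, all on the plus strand. The motif started 21 bases before the annotated start of Tyr, 46 before Tyrp1, 150 and 232 before Dct, 13 before Slc24a5, 48 before Mlph, 21 before Tspan10 and 141 before Trpm1.
Tyr: aaagttagtCATGTGctttgcagaagataa
Tyrp1: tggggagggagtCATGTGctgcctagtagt
Dct, nearer: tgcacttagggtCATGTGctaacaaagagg
Dct, farther: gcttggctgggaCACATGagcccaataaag
Slc24a5: ggaggaaggagactgctCACATGattcagc
Mlph: tcaggagtagccCACGTGatctgagccgca
Tspan10: gtgactcctCACATGataccactgtgatcg
Trpm1: ccaaatcctcatCATGTGcccaccccaaac

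A match is a stretch of letters and not a measured binding site. No match was found in the windows of Kit, Mitf, Gpnmb, Cd63, Ednrb, Ptgds, Mcoln3 or Myo5a. Promoters of Pmel, Mlana, Sox10, Pax3, Gpr143, Slc45a2 and Syt4 were not used here. Genes at least 4-fold higher in the melanocyte lineage cells than in other kept cells in both libraries, described further on, held a motif in 27 of 151 promoters (17.9%), a share near that of all genes. The induced microRNA, mmu-miR-205-5p, is shown for its seed (bases 2 to 8, in capitals), the stretch that pairs with target RNAs, and is encoded at chr1:193507503-193507524 on the minus strand in GRCm38.p6.
mmu-miR-205-5p: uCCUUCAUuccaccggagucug

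The libraries held 4545 control and 4264 induced barcodes, of which 3936 and 3628 were kept, with a median of 12198.5 and 11752.5 UMIs per kept cell. The libraries shared 11 barcode sequences, none of them in a melanocyte lineage cell. Melanocyte lineage cells were much shallower than the rest, and deeper in the induced than in the control library. A control cell had 2583 to 6086 UMIs (median 3130) and an induced cell 2369 to 11119 (median 4398.5). The cells held 77748 UMIs in all in control and 157274 in the induced library. Over 5000 UMIs were found in 1 of 22 control and 12 of 28 induced cells, and this gap in depth bears on the comparison of pigment genes below. Mitochondrial UMIs made up a median of 7.57% in control and 6.46% in induced cells, against 4.94% and 4.95% over all kept cells.

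The chosen cells stood clear of the rest of the skin on the selecting genes. The marker sum of the control cells was 4 in the lowest cell, then 9 and 10, with a median of 28.5 and a maximum of 169. In the induced library it was 4, then 11 and 13, with a median of 44 and a maximum of 365. Just outside the rule, among keratin-poor kept cells, 2 control and 6 induced cells had 1 marker UMI and none had 2 or 3. Krt5 and Krt14 together did not exceed 3 UMIs in any chosen cell. On the other side of the keratin limit, 3 control and 3 induced cells had at least 3 marker UMIs together with 58 to 330 keratin UMIs, and these were left out. The scatter of marker against keratin UMIs shows an empty band between the chosen cells and the other kept cells.

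**Figure D1:**
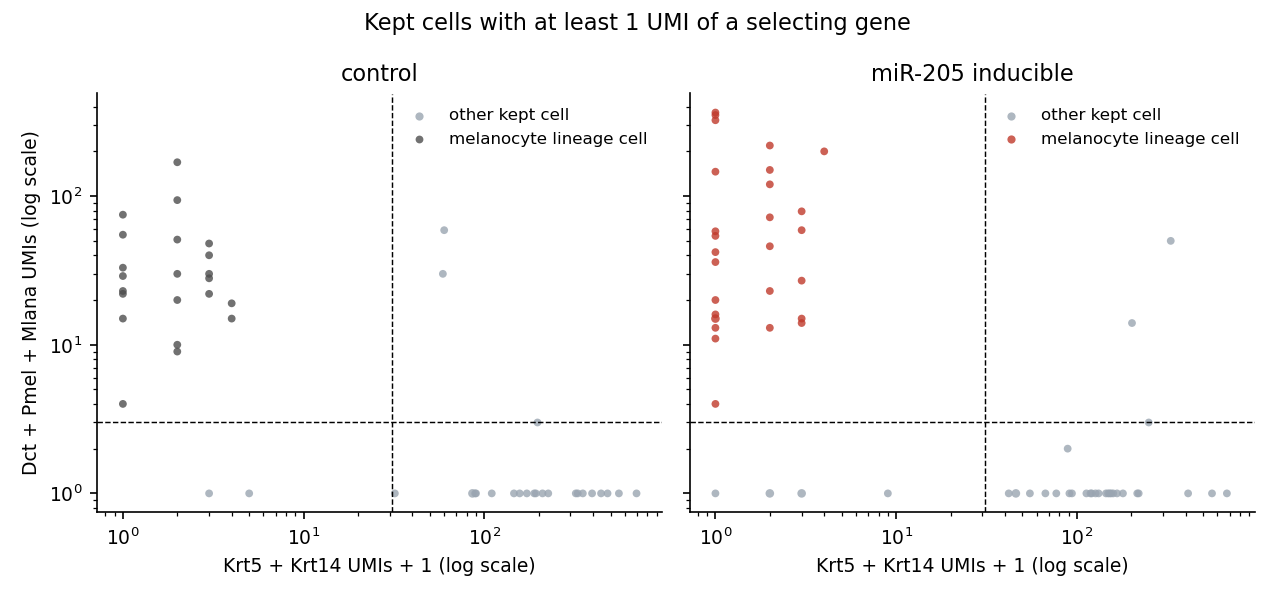
Summed raw UMIs of Dct, Pmel and Mlana (vertical, log scale) against summed Krt5 and Krt14 UMIs plus 1 (horizontal, log scale), for kept cells with at least 1 marker UMI in the control (left) and miR-205 inducible (right) library. Dashed lines mark the limits of 3 marker and 30 keratin UMIs, and the 22 control and 28 induced melanocyte lineage cells lie at the upper left with at most 3 keratin UMIs.

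The share of melanocyte lineage cells did not differ detectably between the libraries. They made up 0.559% of kept control cells (exact binomial 95% interval 0.351 to 0.845). The share among kept induced cells was 0.772% (0.513 to 1.11), which was higher by 0.213 percentage points (−0.159 to 0.603). Among keratin-poor kept cells the shares were 2.49% (22 of 883) and 2.53% (28 of 1108). The sort ratio can set these shares. All intervals cover counting error only, since there was 1 library per group and no spread between mice was measured.

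The markers that the rule did not use were those of the melanocyte lineage. All 50 cells held at least 1 UMI of Sox10, Mitf, Kit, Tyr, Tyrp1 or Gpr143. That count alone says little, since Mitf was also found in 642 of 3914 control and 700 of 3600 induced other kept cells. In 1 control cell it rested on a single Kit UMI. Tyrp1 was found in 21 of 22 control and 27 of 28 induced cells, against 13 and 9 of the other kept cells. Of these other cells, 5 in control and 3 in the induced library were Schwann-marker cells, described further on. That group had only 12 control and 14 induced cells. It held 16 of the 33 control and 10 of the 22 induced Tyrp1 UMIs outside the chosen cells. Of all Tyrp1 UMIs of kept cells, 84.1% lay in the chosen control cells and 95.3% in the chosen induced cells. Tyr, the rate-limiting enzyme, was sparse, with 7 UMIs in 7 control cells and 37 UMIs in 14 induced cells, and 2 and 0 UMIs elsewhere. Pax3, a neural crest transcription factor, had 61 of its 64 control UMIs and 113 of its 130 induced UMIs in these cells. Genes that vary together with Dct are not independent of the choice of cells.

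Mast, fibroblast, immune, endothelial and keratinocyte markers were low in the chosen cells, whereas the list of Schwann markers was higher than elsewhere. Mast cells also carry Kit, but Cpa3, Cma1, Mcpt4 and Hdc, mast cell markers with 15 to 84 UMIs per library in other kept cells, had 0 UMIs in the 50 cells (upper 95% limits of 47.4 UMIs per 1000000, or CPM, in control and 23.5 CPM in the induced library). The other 4 mast cell markers were also at 0 but had at most 3 UMIs per library elsewhere, too few to tell. The Schwann list of 10 genes summed to 27 UMIs or 347 CPM (229 to 505) in control and 103 UMIs or 655 CPM (535 to 794) in induced cells, against 100.3 and 134 CPM in other kept cells. Schwann cells share Sox10 with melanocytes, and Cdh19 (5 and 12 UMIs), Fabp7 (1 and 11) and S100b (3 and 7) were also found. Mbp, a protein of the myelin sheath, had 1 UMI in control and 0 in induced cells, against 6481 CPM in 12 control and 9117 CPM in 14 induced kept cells selected by the same list without Sox10. Egfl8 and Scn7a, also on it, had 0 UMIs in the 50 cells. The fibroblast list summed to 3 and 4 UMIs with no more than 1 in any cell. The immune list summed to 4 UMIs in control and 20 in induced cells, of which 1 control cell (3 UMIs) and 2 induced cells (7 and 10 UMIs) held most. Endothelial and mural markers had 2 and 1 UMIs. The keratinocyte list of 12 genes reached 1003 CPM (793 to 1252) in control and 547 CPM (437 to 675) in induced cells, against 40450 and 37399 CPM in other kept cells. It holds Krt5 and Krt14, which the rule limited, so part of this gap was set by the choice of cells. Each list gene outside the rule was also lower than elsewhere in both libraries. Sfn, for example, was at 180 and 146 CPM against 9822 and 8139 CPM. No cell had more than 9 UMIs of the list, and Trp63, Dsp and Col17a1 were at or near 0. The part of free keratinocyte RNA in these values was not tested.

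Against the other kept cells, 208 of 1787 genes outside the rule (11.6%) were at least 4-fold higher in the melanocyte lineage cells in both libraries, among genes with at least 20 UMIs in the cells. Here and below, UMIs were summed over the cells of a library and scaled to CPM. The median of the genes so limited was also somewhat higher in these cells, by 0.54 (log2) in control and 0.51 in the induced library. A gene low in these cells can miss the 20 UMIs. The limit by itself therefore favours higher genes, in the median and in the counts. Of the 208 genes, 189 were on no melanocyte or other list, and 16 genes were at least 4-fold lower in both libraries. Counts of this kind describe the 50 cells and carry no test, since the cells were chosen by expression.

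**Figure D2:**
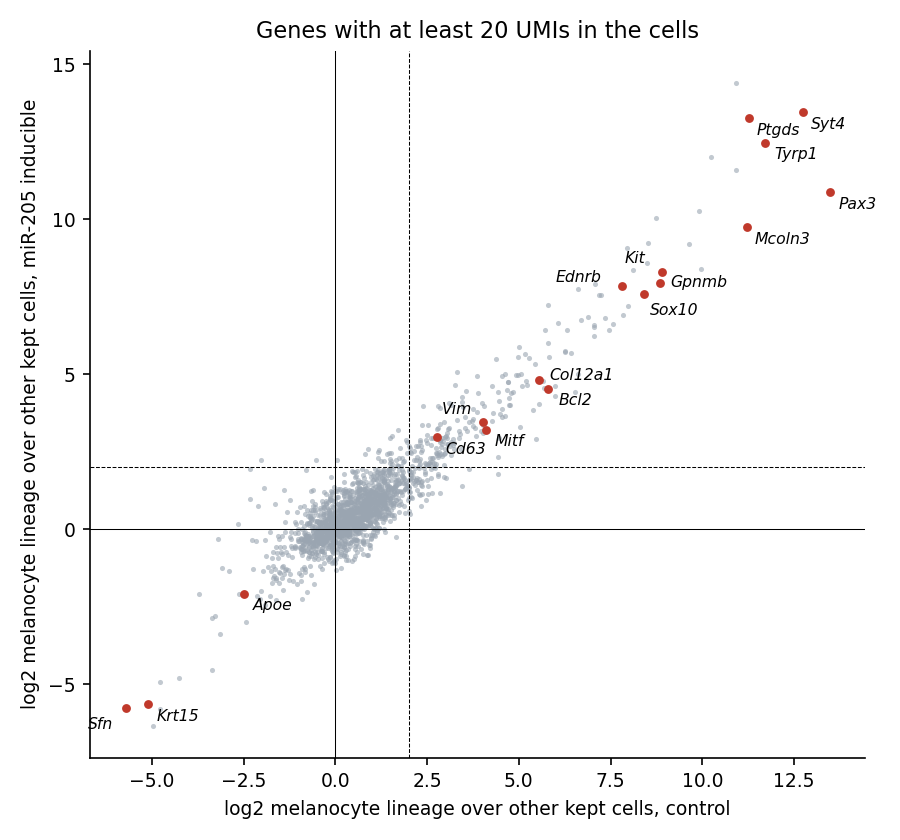
Log2 ratio of summed CPM in melanocyte lineage cells over other kept cells in the control (horizontal) and miR-205 inducible (vertical) library, 1 point per gene with at least 20 UMIs in the cells, without the 5 genes of the rule. Dashed lines mark 4-fold, and Syt4, Ptgds, Tyrp1, Pax3 and Mcoln3 lie at the upper right while the keratinocyte genes Krt15 and Sfn lie at the lower left.

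Outside the lists, the greatest excess belonged to 12 genes named by rule. Syt4, a synaptotagmin of regulated vesicle traffic, had 121 UMIs in 13 control cells and 331 in 18 induced cells, or 1556 CPM (1291 to 1860) and 2105 CPM (1884 to 2344), against 0.218 and 0.177 CPM in other kept cells. Mcoln3 encodes an endolysosomal cation channel and reached 579 and 521 CPM against 0.238 and 0.597. Slc6a17, a vesicular amino acid transporter, was 247-fold higher in control and 146-fold in the induced library. The other genes among the 12 with the greatest excess were Plekho1, Ncald, Mylk, Nav2, St3gal6, Enpp2, Basp1, Cnn3 and Col12a1. Nav2, a cytoskeletal regulator of axon growth, was found in 21 of 22 and 26 of 28 cells, at 1209 and 916 CPM. Enpp2, which encodes the secreted lysophospholipase autotaxin, was at 1029 and 1075 CPM. For these 12 genes the lower of the library folds was 28.0 (Col12a1, induced) or more.

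The list of neural crest and matrix genes was mixed. Ptgds, prostaglandin D2 synthase, was among the most abundant of all, with 240 UMIs in 20 control cells and 667 in 26 induced cells, or 3087 CPM (2709 to 3503) and 4241 CPM (3925 to 4575), and 1.25 and 0.420 CPM elsewhere. Of its kept UMIs, 79.2% and 97.2% were in these cells. Vim, the intermediate filament of mesenchymal and neural crest cells, was found in every one of the 50 cells, at 4656 and 7191 CPM against 285 and 655 CPM in other cells. Apoe, a lipid carrier made by many skin cells, was lower than elsewhere, at 1209 and 1634 CPM against 6792 and 6911. Of the 4 tested genes on this list, 3 were at least 4-fold higher in both libraries, with Syngr1, a synaptic vesicle protein, at 144-fold and 186-fold.

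Melanosome genes other than those of the rule were detected by role. Gpnmb, a glycoprotein related to Pmel, was at 1042 CPM in control and 966 CPM in induced cells, against 2.28 and 3.96 CPM elsewhere. Cd63, a tetraspanin that sorts Pmel in the forming melanosome, was found in all 50 cells, at 3267 and 3898 CPM, and was 6.76-fold and 7.87-fold above other cells. Collagen-rich cells came nearer, at 2134 and 1932 CPM. Slc24a5, a melanosomal ion exchanger, had 11 UMIs in 6 control cells and 40 in 10 induced cells. Myo5a, the motor that carries melanosomes along actin, had 41 UMIs in 17 cells and 117 in 27 cells, and its partner Mlph had 3 and 8 UMIs. Trpm1, a channel gene known for its loss in melanoma, had 5 UMIs in 2 control cells and 23 in 10 induced cells. Gpr143, the ocular albinism receptor of the melanosome, had 2 and 11 UMIs, and the transporter Slc45a2 had 4 and 14. Oca2 had no UMI, which at the depth of these cells allows a share of cells with a UMI of up to 13.6% in control and 10.7% in the induced library (3 cells of the total). Of the 22 genes on the biogenesis and movement list, 3 reached 20 UMIs, and 2 of these were at least 4-fold above other cells in both libraries.

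The transcription factors of the lineage were present at low counts. Mitf had 23 UMIs in 14 control cells and 31 in 13 induced cells, or 296 CPM (187 to 444) and 197 CPM (134 to 280), against 17.5 and 21.6 CPM in the other kept cells. Only 2.54% and 3.08% of its kept UMIs lay in the melanocyte lineage cells, and the far more numerous keratin-rich cells held 747 and 729 of its UMIs. Pax3 was at 785 CPM (600.1 to 1008) and 718 CPM (592 to 864), against 0.0594 and 0.376 CPM elsewhere. Sox10 was sparse, with 5 UMIs in 4 control cells and 21 in 7 induced cells, of which 1 induced cell held 6. Zeb2, a repressor needed in melanocyte development, was at 553 and 509 CPM, 18.9-fold and 11.2-fold above the rest. It was not particular to the lineage, with 551 and 581 CPM in collagen-rich cells and 855 and 462 CPM in Schwann-marker cells. Sox10 was at 64.3 and 134 CPM here and at 207 and 308 CPM in Schwann-marker cells. Foxd3, a factor of early neural crest, had 1 and 11 UMIs. Of 5 tested genes on this list, 4 were at least 4-fold above other cells in both libraries, and the fifth, Nfib, a hair follicle stem cell factor that restrains melanocyte stem cells from outside, was lower than elsewhere.

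Receptors divided into those found in these cells and those at or near 0. Kit had 25 UMIs in 12 control cells and 52 in 23 induced cells, or 322 CPM (208 to 475) and 331 CPM (247 to 434), and it was 477-fold and 318-fold above other cells. Ednrb, the endothelin receptor that guides melanoblasts and their renewal, had 31 UMIs in 14 cells and 45 in 13 cells, at 399 CPM (271 to 566) and 286 CPM (209 to 383). Mc1r, the melanocortin receptor that selects the type of melanin, had no UMI in any of the 50 cells, with the same upper limits as for Oca2. Met, the receptor of hepatocyte growth factor, was 1.86-fold and 1.77-fold above other cells, and no other receptor on the list of 11 reached 20 UMIs.

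Most UMIs of the matching ligands lay outside the lineage, as did nearly all UMIs of kept cells. Kitl, the KIT ligand, had 1972 UMIs in kept control cells and 1367 in kept induced cells, of which keratin-rich cells held 1655 and 985 and the melanocyte lineage cells 1 and 2. Scaled to CPM, collagen-rich cells were higher (146 and 120) than keratin-rich cells (39.6 and 28.0). The lineage cells were at 12.9 CPM (0.326 to 71.7) and 12.7 CPM (1.54 to 45.9). These intervals include the 39.0 and 30.2 CPM of other kept cells. Edn1, a ligand of endothelin receptors, had 1866 and 1397 UMIs, with 0 in the lineage cells and 1752 and 1180 in keratin-rich cells. A sum of 0 allows up to 47.4 CPM in control and 23.5 CPM in induced lineage cells. Edn1 was at 37.0 and 30.9 CPM in other kept cells, so only the induced limit lies below the level elsewhere. Edn2 and Edn3 had no UMI in the lineage cells either. Both were too sparse elsewhere to tell, at 4.00 and 7.65 CPM (Edn2) and 0.396 and 0.686 CPM (Edn3). Edn3 was a gene of few counts, 20 and 31 UMIs, of which collagen-rich cells held 7 and 26. Tgfb2, a cytokine linked to melanocyte stem cell quiescence, was the only gene to reach 20 UMIs among 12 ligand genes in the features. It had 11 UMIs over 8 control cells, 40 over 12 induced cells, and levels 6.71-fold and 9.52-fold above other kept cells. Collagen-rich cells came nearer, at 122 and 96.0 CPM against 141 CPM (70.6 to 253) and 254 CPM (182 to 346) in the lineage cells. The control interval includes the collagen-rich level. Tgfb1, on the same list, had 1 UMI in control and 8 in induced cells, the latter at 50.9 CPM against 49.6 elsewhere.

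Among survival and arrest genes Bcl2 was far above the other cells, and the sum of the G2M list, mostly Hmgb2 here, was below them. Bcl2, the survival factor on which melanocyte stem cells depend, was found in 21 of 22 control and 25 of 28 induced cells, at 746 CPM (566 to 964) and 559 CPM (449 to 689), which was 55.4-fold and 23.0-fold above the rest. Cdkn1b, an inhibitor of cell cycle kinases, had 12 and 11 UMIs and was 6.98-fold and 2.16-fold above other cells, while Cdkn1a and Mcl1 were within 2-fold of them. In Schwann-marker cells Cdkn1b was higher still, at 389 and 539 CPM against 154 and 69.9 CPM here. Mki67 had no UMI in either library and Top2a had 0 and 1. The G2M list summed to 11 and 14 UMIs, or 141 CPM (70.6 to 253) and 89.0 CPM (48.7 to 149), against 442 and 404 CPM in other kept cells. The S phase list was at 154 CPM (79.8 to 270) and 146 CPM (92.7 to 219) against 196 and 175, which the intervals include.

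The cells varied widely among themselves. Dct, Pmel and Mlana together took 0.139% of the UMIs in the lowest control cell, 0.904% in the median cell and 2.78% in the highest. In the induced library they took 0.0939%, 0.879% and 4.15%. Pmel was not detected in 3 control and 5 induced cells and Mlana in 9 and 7 cells, whereas Dct was found in every cell. Tyr and Mlana were found together in 4 control and 12 induced cells. Across cells, the Pmel share rose with the Dct share, with a Spearman rho of 0.59 over the 22 control and 0.78 over the 28 induced cells. These points share a library and a cell total, and the genes are among those that chose the cells. Syt4 was uneven, with 5 control cells holding 65.3% and 5 induced cells 60.1% of its UMIs, and it was not seen in 9 control and 10 induced cells.

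**Figure D3:**
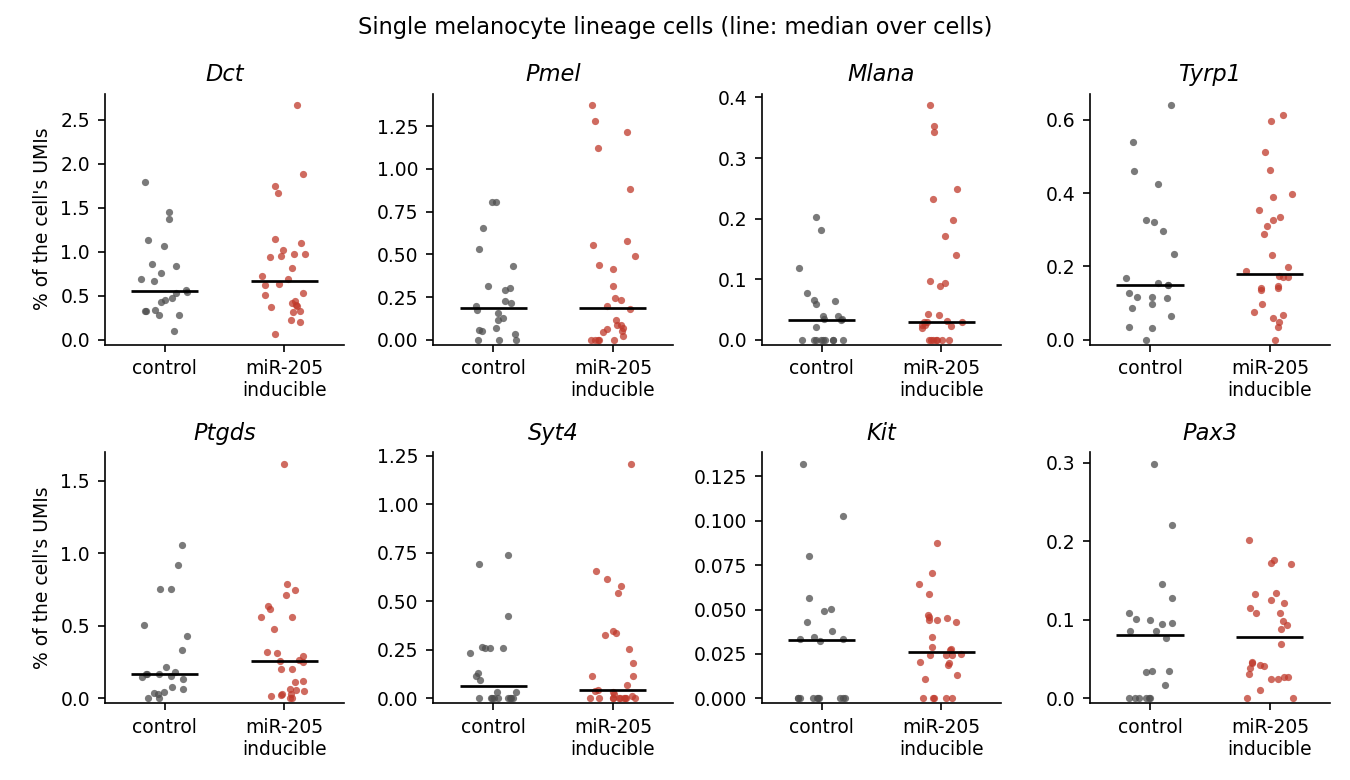
Share of a cell's UMIs (%, vertical) taken by each of 8 genes in the 22 control and 28 miR-205 inducible melanocyte lineage cells, 1 point per cell, with a line at the median over cells. The groups overlap for every gene, and the highest induced cells exceed the highest control cells for Dct, Pmel, Mlana, Ptgds and Syt4.

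Pigment genes took a greater share in deeper cells. The rank correlation of the 3-gene share with the cell's UMI total was 0.39 in control and 0.58 in induced cells, a description over cells of 1 library each. The deepest control cell, at 6086 UMIs, also had the highest share there. In the induced library the 12 cells over 5000 UMIs had 12643 CPM of Dct, 7110 of Pmel and 1780 of Mlana, against 4987, 1306 and 322 CPM in the 16 shallower cells. Tyrp1, which the rule did not use, was at 3418 against 1832 CPM, and Tyr at 305 against 119 CPM. Pax3 went the other way, at 570 against 967 CPM. Id3, a helix-loop-helix inhibitor, had 28 of its 32 induced UMIs in the shallower cells.

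**Figure D4:**
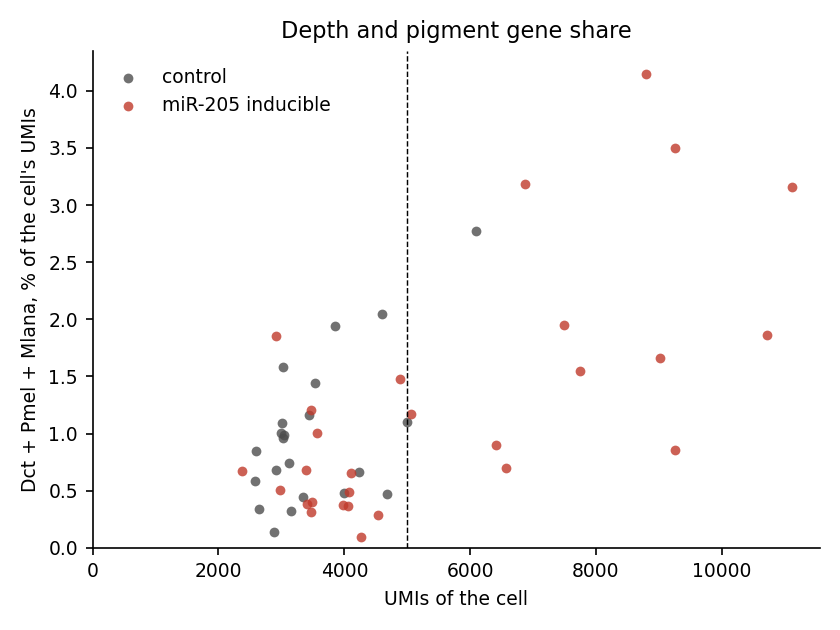
Share of UMIs (%) taken by Dct, Pmel and Mlana together (vertical) against the UMI total of the cell (horizontal), 1 point per melanocyte lineage cell, with control in grey and miR-205 inducible in red. The dashed line marks 5000 UMIs, to the right of which lie 1 control and 12 induced cells, and the 3 highest shares belong to induced cells on that side.

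To ask whether melanocyte lineage cells differed with miR-205 induction, summed CPM was compared between the libraries, as the log2 ratio of induced to control after adding 0.5 UMIs to each sum. With 1 library per group no difference has a replicate check, and exact 95% intervals cover counting error only. Among 1791 genes with at least 20 UMIs, 137 (7.65%) were at least 2-fold higher and 110 (6.14%) at least 2-fold lower in induced cells, and the median gene was at −0.03. In the simulated counts used to test the code, 7.17% of unchanged genes were past 2-fold either way from counting error alone. List counts below are read against the 7.65% and 6.14%.

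In the sums, pigment genes were higher in the induced cells. Dct went from 581 UMIs and 7473 CPM (6877 to 8106) to 1537 UMIs and 9773 CPM (9290 to 10274), a log2 ratio of 0.39 (0.25 to 0.53). Pmel went from 220 UMIs and 2830 CPM (2468 to 3229) to 776 UMIs and 4934 CPM (4593 to 5294), a log2 ratio of 0.80 (0.58 to 1.02). Mlana went from 40 to 194 UMIs, a ratio of 1.25 (0.76 to 1.79). Those 3 genes belong to the rule. Of genes the rule did not use, Tyrp1 had a ratio of 0.33 (0.08 to 0.60), from 174 to 444 UMIs, and Tyr 1.31 (0.20 to 2.80). On the matrix and transport list, the 3 tested genes outside the rule had a median of 0.25 with none past 2-fold. They were Slc24a5 at 0.80, Cd63 at 0.25 and Gpnmb at −0.11 (−0.51 to 0.30).

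The excess was carried by the deeper induced cells. Among cells with at most 5000 UMIs (21 control and 16 induced, median 3115 and 3530 UMIs), the direction turned for Dct, to −0.40, for Pmel, to −0.86, for Mlana, to −0.32, for Tyrp1, to −0.35, and for Ptgds, from 0.46 to −0.27. In these cells the control and induced CPM intervals overlapped for Mlana (271 to 581 and 194 to 503), Tyrp1 (2003 to 2727 and 1503 to 2212) and Ptgds (2210 to 2967 and 1765 to 2526). They were apart for Dct (6006 to 7208 and 4433 to 5591) and Pmel (2042 to 2772 and 1031 to 1632). Medians over cells differed by gene. The median Pmel share of UMIs was 0.186% in control against 0.187% in induced cells. For Mlana the medians were 0.0326% and 0.0300%, for Dct 0.553% and 0.663%, for Tyrp1 0.150% and 0.180%, and for Ptgds 0.166% and 0.255%, so that the last 3 were higher in induced cells. When every cell was thinned to 2000 UMIs, which left out no melanocyte lineage cell, Pmel was found in 81.8% (59.7 to 94.8) of control and 71.4% (51.3 to 86.8) of induced cells, with 103 and 204 thinned UMIs. Mlana was found in 45.5% (24.4 to 67.8) and 57.1% (37.2 to 75.5), and Tyrp1 in 86.4% (65.1 to 97.1) and 92.9% (76.5 to 99.1). These intervals overlap for each gene. Tyr was found in 27.3% (10.7 to 50.2) and 39.3% (21.5 to 59.4), against 7 of 22 and 14 of 28 cells before thinning. In other kept cells thinned alike, from a median of 12233 and 11806 UMIs, Tyr was in 0.0259% and 0% (0 of 3530 cells). A different mix of cells and a different level per cell cannot be told apart from these sums.

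**Figure D5:**
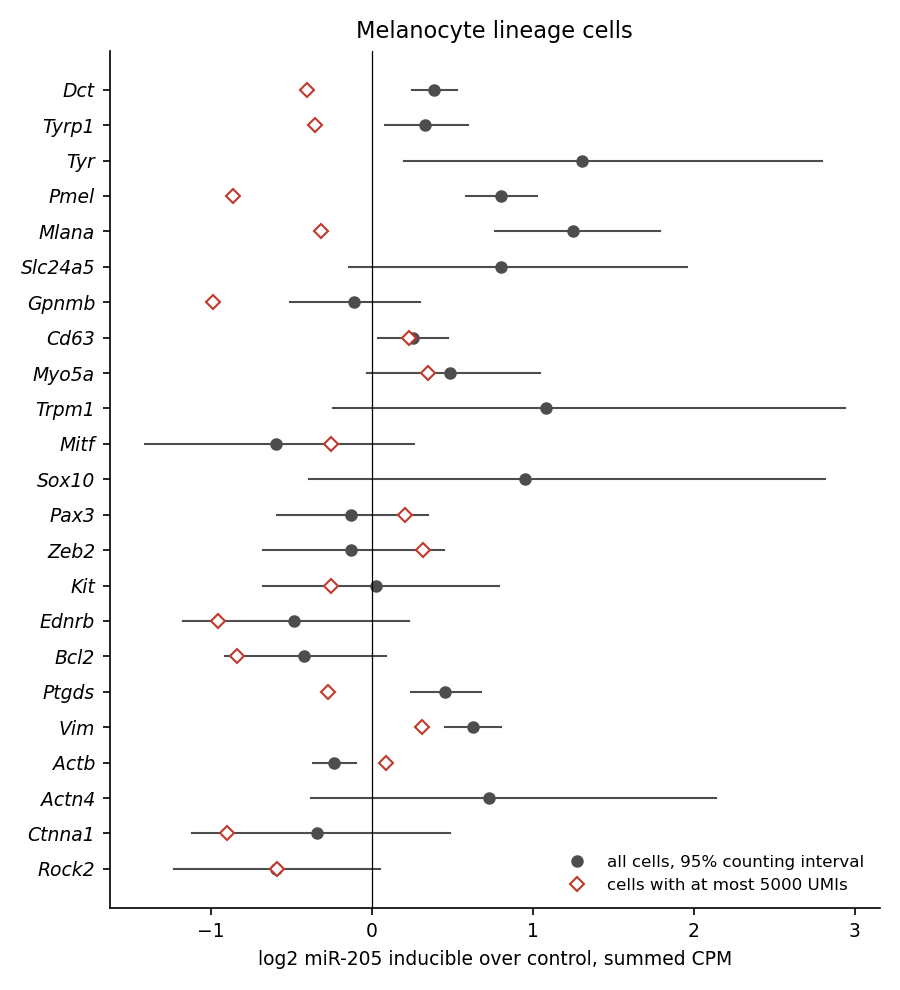
Log2 ratio of summed CPM, miR-205 inducible over control (horizontal), for 23 genes of the melanocyte lineage cells, with exact 95% intervals for counting error (lines) and, as diamonds, the ratio in cells with at most 5000 UMIs where at least 20 UMIs remained. Dct, Tyrp1, Pmel, Mlana and Ptgds lie above 0 in all cells and below 0 in the shallower cells.

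The transcription factors and receptors named here had intervals that include 0. Kit was at 0.03 (−0.67 to 0.79), Mitf at −0.59 (−1.41 to 0.26), Pax3 at −0.13 (−0.59 to 0.35), Sox10 at 0.95 (−0.39 to 2.82) and Ednrb at −0.49 (−1.17 to 0.23). These genes had few UMIs and their intervals are wide. The transcription factor list had a median of −0.13 over 5 genes, with 1 at least 2-fold lower (Nfib), and the receptor list −0.49 over 3 genes, with none past 2-fold. Thinned shares with a Kit UMI were 45.5% and 46.4%. Bcl2 was at −0.42 (−0.91 to 0.09), and with thinning it was found in 81.8% (59.7 to 94.8) of control cells and 14 of 28 induced cells (30.6% to 69.4%). The survival and maintenance list had a median of −0.42 over 5 genes, with Cdkn1b past 2-fold lower and Id3 past 2-fold higher, the latter at 1.84 (0.49 to 3.94) from 4 to 32 UMIs.

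Adhesion genes were few. Cdh2 was found at 77.2 and 76.3 CPM against 0.317 and 0.885 elsewhere, whereas Cdh1, the cadherin of epidermal cells, was at 51.4 and 50.9 CPM against 381 and 319. The adhesion list had a median of −0.10 over 4 tested genes, with Cdh3 past 2-fold higher and Ptprk past 2-fold lower. None of the 11 Wnt and Notch response genes reached 20 UMIs.

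The 6 cytoskeletal and adhesion genes that the study names as miR-205 targets were also measured in these cells. Actb, cytoplasmic actin, had 709 and 1221 UMIs and a ratio of −0.23 (−0.37 to −0.10), beside −0.29 in the other kept cells, but 0.087 among cells with at most 5000 UMIs. Rock2, a kinase that activates myosin contraction, was at −0.60 (−1.23 to 0.05), Ctnna1, which links cadherins to actin, at −0.34 (−1.12 to 0.49), and Actn4, an actin crosslinker, at 0.73 (−0.38 to 2.14). Actn1 had 6 and 2 UMIs and Piezo1, the stretch-activated channel, 2 and 6. Of the 4 genes tested, 3 were below 0 and none past 2-fold, with a list median of −0.29. The study chose these genes with its own data in view, so their direction is not independent evidence.

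Immediate early genes, which respond to tissue dissociation, were higher in the induced cells. All 15 genes of the stress list summed to 3859 CPM (3434 to 4321) in control and 6123 CPM (5742 to 6522) in induced cells, against 9356 and 11292 CPM elsewhere. Of 13 tested, 11 were above 0 and 2 past 2-fold, with a median of 0.45, or 1.52 in the shallower cells. Fos was at 1.47 (0.79 to 2.29), from 19 UMIs in 10 cells to 109 in 17, and 5 induced cells held 81.7% of it. Its ratio in other kept cells was 0.64.

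Among genes with at least 100 UMIs, the 8 with the highest and the 8 with the lowest ratios were named by rule. The highest was Gm8797, from 4 to 191 UMIs, at 4.39 (3.18 to 6.45), but it was just as different in other kept cells, at 4.66. This is a ubiquitin pseudogene that shares sequence with the ubiquitin genes, so its counts are uncertain. Slc25a4, the mitochondrial adenine nucleotide carrier, followed at 1.73 (1.00 to 2.62) beside 0.25 elsewhere. Fos, Selenop, Cox7a2l, Mgll, Tuba1a and Jund made up the rest, from 0.99 to 1.47. In cells with at most 5000 UMIs, Selenop went from 1.15 to 0.24, Mgll from 1.03 to −0.02, Slc25a4 to 1.13 and Cox7a2l from 1.04 to 0.71, while Jund was at 1.67, Fos at 1.60 and Tuba1a at 1.08. At the other end stood Txn1, thioredoxin, at −1.08 (−1.40 to −0.76), Ifrd1 at −1.06, Xist (interval −1.33 to −0.66), Gstp1 at −0.93, Cdkn1a at −0.93 (−1.38 to −0.47), Col12a1 at −0.92 (−1.46 to −0.38), Slc3a2 at −0.92 and Atf4 at −0.91. Atf4, the transcription factor of the amino acid stress response, and Slc3a2, a subunit of amino acid transporters and a known target of it, were below 0 together. In the same shallower cells, Atf4 was at −0.20, Slc3a2 at −0.46 and Cdkn1a at −0.23, while Txn1 stayed at −1.04.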

How the data were processed

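The authors counted UMIs per gene and cell barcode with Cell Ranger (version 3.0.1 in the file headers, with mm10 named in the submitters' notes) and deposited raw counts, 1 matrix for each of 2 libraries. The study's filter on genes and mitochondrial UMIs was applied, and no doublet caller was run. Counts were summed over the cells of a library and scaled to CPM. Ratios add 0.5 UMIs to each sum and cover genes that reached 20 UMIs in the chosen cells. Intervals are exact at 95%, and a share of 0 is given the limit that 3 counts allow. With 1 library per group no test was made. The code was tested on simulated data.

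The chosen cells, the 20 gene lists and the rules were set with earlier results of these data known. Named genes were list genes (those given values were picked after the values were seen), the 12 others with the greatest excess over other kept cells (at least 20 UMIs in each library), and the 8 highest and 8 lowest ratios at 100 UMIs or more, without mitochondrial, ribosomal, haemoglobin and rule genes. Kept cells with at least 30 Krt5 and Krt14 UMIs are called keratin-rich. Among the rest, cells with at least 30 UMIs of the fibroblast list are collagen-rich and those with at least 30 of the Schwann list (without Sox10) Schwann-marker cells. Sequences came from RefSeq tables of GRCm38.p6, the assembly of mm10. Python 3.11.15, numpy 2.4.6, scipy 1.17.1 and pandas 2.3.3 were used.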

Additional observations from a re-analysis of the deposited data

Results flagged for a closer look

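Genes whose ratio of induced over control was past 2-fold in the melanocyte lineage cells and of opposite sign in the other kept cells, each with an interval that left out 0, were looked at again. The difference between the groups of cells was not tested. Ptprk, a receptor phosphatase of cell adhesion, had a log2 ratio of −1.41 (−2.86 to −0.06) from 12 to 9 UMIs, beside 0.18 in other kept cells. Lgals7, a keratinocyte galectin, had −1.33 (−2.56 to −0.14) from 15 to 12 UMIs, beside 0.05. The keratinocyte list went from 78 to 86 UMIs in these cells, at a ratio of −0.88 (−1.33 to −0.41). That sum holds Lgals7 itself and the rule genes Krt5 and Krt14. All 4 tested genes were below 0. Besides Lgals7 and Krt14 these were Sfn at −0.32 (−1.32 to 0.77) and Krt15 at −0.17 (−1.55 to 1.44), and both intervals include 0. The part of keratinocyte RNA in the Lgals7 value was not tested. Txn1 had −1.08 (−1.40 to −0.76) from 167 to 160 UMIs, beside 0.15.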

How the results depend on the processing

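No paired analysis was possible because each group had 1 library. With at most 5000 UMIs per cell, an alternative chosen after seeing the data, list medians turned to −0.59 (melanosome matrix and transport) and 0.21 (transcription factors), and moved to −0.61 (receptors) and 1.52 (stress). The first of these includes the rule genes Pmel and Mlana, and of its other genes Cd63 was at 0.23 and Gpnmb at −0.99. Ratios turned for Dct (−0.40), Pmel (−0.86), Mlana (−0.32), Tyrp1 (−0.35), Ptgds (−0.27), Actb (0.087) and Mgll (−0.020), and Cdkn1a rose above other cells in both libraries (0.50). At this setting the control and induced CPM intervals overlapped for Mlana, Tyrp1, Ptgds and Actb. Genes past 2-fold fell to 57 higher and 41 lower, and those past 4-fold over other cells to 116, with fewer genes reaching 20 UMIs. The mean over cells of CPM gave 0.085 (transcription factors), −0.70 (receptors) and 1.02 (stress). At 50 UMIs, 23 genes were past 2-fold higher, 5 lower and 80 past 4-fold. At 1 UMI these were 1807, 2326 and 1340. Less than 5% mitochondrial UMIs left 0 control and 3 induced cells, so no ratio could be had. Of 1074 recomputed values of named genes, 1001 stayed within counting error, 65 moved beyond it and 8 turned. The other alternatives (at least 10 marker UMIs, fewer than 10 keratin UMIs, no upper gene limit, a further melanocyte gene, cells without markers of another class, totals without mitochondrial and ribosomal genes, size factors, a pseudocount of 1) left each count and list median above within its limits. Depth was 77748 and 157274 UMIs, so genes under 20 UMIs have wide intervals.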

Other observations

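Barcodes that the filter removed also held melanocyte marker UMIs. In control, 3 such barcodes with few keratin UMIs had 3 to 67 UMIs of Dct, Pmel and Mlana and at least 10.2% mitochondrial UMIs, and in the induced library 2 had 5 to 37 marker UMIs and at least 32.3% mitochondrial UMIs.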
